A study of Mus musculus with 2 samples.

Results

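The mouse microRNA gene Mir215 and 9 named genes around it on chromosome 1 were followed in the small intestinal epithelium of mice with and without miR-215. The names were taken by symbol: the targeted microRNA gene, its overlapping non-coding transcript 2010103J01Rik, the gene Iars2 whose intron holds both, and the chromosome 1 genes Rab3gap2, Bpnt1, Mosc1, Mosc2, Ephx1, Adck3 and Sccpdh. Of the 10 names, 9 were listed among the 23284 genes measured, and 2010103J01Rik was not analysed here under that symbol. The names were picked with their values in these libraries already known, so all their levels and folds below are a description and none is a test.

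The study measured polyadenylated RNA by sequencing in small intestinal epithelia of wild-type (miR-215+/+) and miR-215 knockout (miR-215-/-) mice. Each genotype has 1 library, so the differences below lack a replicate check and carry no p-value, and wild-type or knockout epithelium stands for that single library. The sources used here do not state the strain, sex and age of the mice, the number of mice behind a library, whether the wild-type mice were littermates, or which bases of the locus were deleted. No other allele or treatment is named for either genotype.

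MicroRNAs are short RNAs that pair through their seed, the bases near the 5′ end, with matching sites in messenger RNAs and lower their stability or translation. miR-215 belongs to the miR-192 family, is abundant in the gut epithelium, and is made from a cluster that also holds a gene for miR-194. A cluster of the same kind on chromosome 19 makes miR-192 and another copy of miR-194.

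The mature RNAs of both clusters are printed because they show what the knockout could remove and what the other locus encodes. They come from RefSeq on GRCm38.p6, the assembly behind mm10. They are written 5′ to 3′, with the seed, bases 2 to 8, in capitals.
mmu-miR-215-5p: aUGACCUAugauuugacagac
mmu-miR-192-5p: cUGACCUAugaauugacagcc
mmu-miR-215-3p: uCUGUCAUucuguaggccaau
mmu-miR-194-5p: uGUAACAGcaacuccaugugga

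The seed of miR-215-5p is the seed of miR-192-5p letter for letter. Both RNAs are 21 nt long and differ at 3 positions, A1C, U12A and A20C, counted from the 5′ end with the base of miR-215-5p first. The 3 differences lie outside the seed. miR-194-5p has another seed, and its mature sequence is the same from the chromosome 1 and the chromosome 19 gene.

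The hairpin from which miR-215 is cut is given next, with its 5p and 3p arms in capitals, since it is the whole of the gene that the libraries list as Mir215.
Mir215 hairpin, chr1:185313581-185313692, plus strand: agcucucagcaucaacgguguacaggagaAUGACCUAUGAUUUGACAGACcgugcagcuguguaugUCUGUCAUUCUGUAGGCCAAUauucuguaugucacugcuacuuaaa

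In GENCODE M21 on GRCm38 the Mir215 hairpin is 112 nt long and lies on the plus strand of chromosome 1 from 185313581 to 185313692. It falls inside exon 2 of 2010103J01Rik, a non-coding transcript of 2 exons and 388 nt on the same strand, at transcript positions 166 to 277. The gene of that transcript runs from 185312187 to 185313803, and its intron holds Mir194-1 (185313319 to 185313385), with 195 bases between Mir194-1 and Mir215. All 3 lie antisense within Iars2, a minus-strand gene. In the 23-exon transcript of Iars2 they sit in the intron after exon 12, which spans 12492 bases from 185303402 to 185315893.

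The other members fall into a near and a far set by position. Rab3gap2 (185204117 to 185286759, plus strand) ends inside the 3′ end of Iars2 (185284726 to 185329396, minus strand), with 2034 bases shared on opposite strands. Bpnt1 (185332149 to 185357777, plus strand) starts 2752 bases beyond the start of Iars2 and is read away from it. Mosc2 (184813068 to 184846451) and Mosc1 (184786767 to 184811313) are side by side on the minus strand with 1754 bases between them, 0.467 and 0.502 megabases (Mb) from Mir215. The far set is Ephx1 (180976210 to 181020904, minus strand), Adck3 (180165238 to 180199602, minus strand) and Sccpdh (179668210 to 179687189, plus strand), at 4.29, 5.11 and 5.63 Mb. The annotation names Mosc1, Mosc2 and Adck3 by their newer symbols Marc1, Marc2 and Coq8a.

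Levels are FPKM, fragments per kilobase of transcript scaled to the depth of the library, so levels of different genes can be set side by side. The files hold no counts. The worth of 1 fragment was taken from the spacing of the lowest levels and came to 0.103 FPKM per kilobase of effective length in wild-type epithelium and 0.0988 in knockout epithelium. Fragment numbers estimated in this way gave the 95% intervals below, which cover counting error only and not variation between mice or preparations. Folds with an interval are ratios of FPKM. A difference on the log2 scale is that of FPKM + 1, knockout minus wild-type, which shrinks differences at low levels.

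The summed FPKM was 750631 in wild-type epithelium and 683884 in knockout epithelium, and the 11504 genes that reached 1 FPKM in one library or both were kept for counts. Their median log2 difference was -0.05, and multiplying the knockout values to equal sums brought it to 0.07. All 12 epithelial markers were kept, with summed FPKM of 30786 and 28563, and no marker of this list was at 0. Fabp2 alone gave 18795 and 15926 of these sums, and the median log2 difference of the 12 was -0.03. Of the 12, 1 was at least 1.5-fold lower, Cdx2, an intestinal identity factor, at 124 and 64.8 FPKM, and none was higher. Of the 13 markers of fibroblasts and smooth muscle, 11 were kept and all 11 were at least 1.5-fold higher in knockout epithelium. Of these, Actg2, Des, Col6a1, Col3a1 and Myh11 passed the minimum of 1 FPKM only through the knockout library, which in part fixed their direction. The 13 had summed FPKM of 18.9 and 62.3, with no marker at 0 in both libraries. Markers of T cells and intraepithelial lymphocytes summed to 395 and 418 FPKM, with 1 of 11 kept at least 1.5-fold higher. Those of macrophages, dendritic cells and granulocytes summed to 82.4 and 107, with 3 of 11 higher and S100a8 at 0 in both libraries. Those of B and plasma cells summed to 102 and 120, with 1 of 6 higher, and those of endothelium to 2.47 and 6.98, with 2 of 4 higher and 1 lower. The higher endothelial genes, Egfl7 and Plvap, passed the minimum only through the knockout library, and the lower one, Tek, only through the wild-type library. Over all genes kept, 4.83% were at least 1.5-fold higher and 7.26% lower. Whether any of these levels bears on the members was not tested. In RNA from a whole preparation, fewer cells of a type and less RNA per cell cannot be told apart.

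The targeted gene gave too few fragments to check the genotype labels. Mir215 was listed at 137 FPKM in wild-type epithelium and at 0 in knockout epithelium. Because the hairpin is short, 1 fragment on it was worth 70.8 FPKM in wild-type epithelium and 68.2 in knockout epithelium, and the level in wild-type epithelium stood for 2 fragments. A count of 0 allows up to 3 fragments, or 212 and 205 FPKM, so both libraries lay at or under that limit and no fold is given. A library of polyadenylated RNA reads pieces of the primary transcript here, not the mature miR-215.

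The other microRNA genes of both clusters had 1 fragment or none. Mir194-1, next to Mir215, was listed at 0 in both libraries. On chromosome 19, Mir194-2 was listed at 0 in both, and Mir192 at 0 in wild-type epithelium and at 387 FPKM in knockout epithelium, which stood for 1 fragment. For none of the 4 genes were there enough fragments to compare the libraries.

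Among the 9 listed members, 6 had knockout levels at least 1.5-fold lower on the log2(FPKM + 1) scale, a difference of 0.58 or more, beside 7.26% of all genes kept. None was at least 1.5-fold higher, beside 4.83% of all genes. At 2-fold, 4 members were lower, beside 2.04% of all genes, and none higher, beside 1.34%. Both counts of lower members include Mir215, whose 2 and 0 fragments allow no comparison. Without it, 5 of the 8 protein-coding members were lower at 1.5-fold and 3 at 2-fold. These shares are printed for scale only, since the same contrast served to pick the names. All 9 members passed the minimum of 1 FPKM, but Mir215 and Mosc1 passed it only through the wild-type library. The median log2 difference was -0.79 over the 9 members and -0.76 over the 8 that encode proteins.

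**Figure D1:**
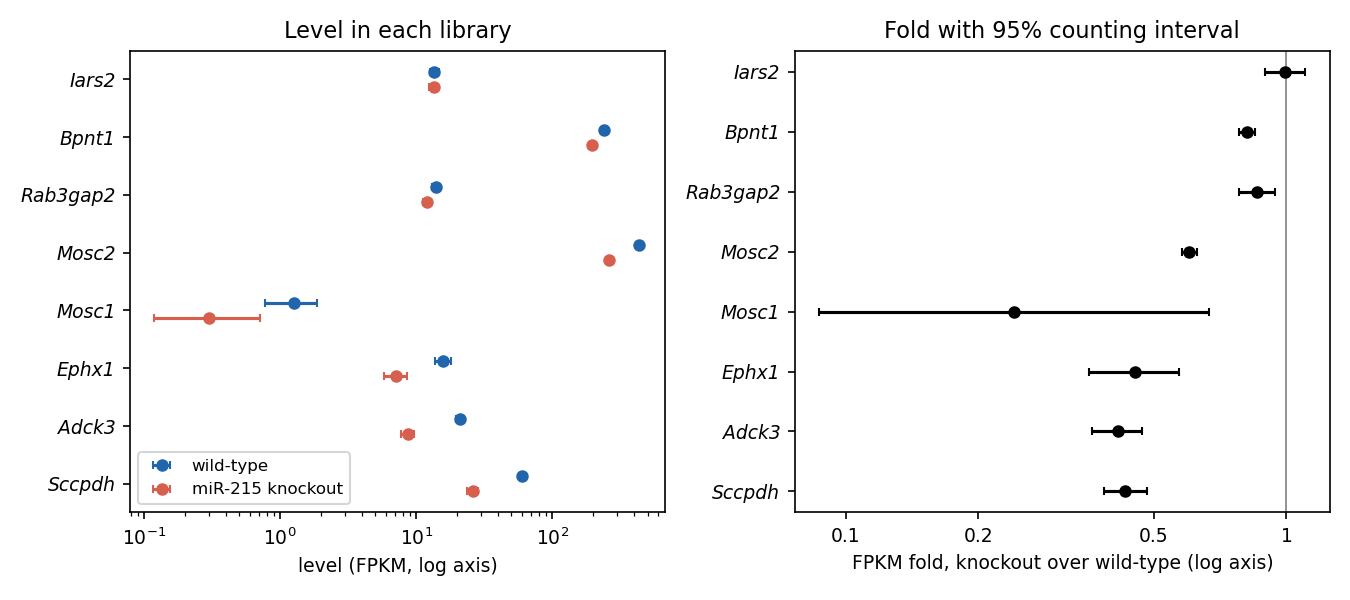
FPKM of the 8 protein-coding members in the wild-type and the knockout library (left, log axis) and the FPKM fold, knockout over wild-type (right, log axis), in order of distance from Mir215 from top to bottom. Points are the single library of each genotype and bars are 95% counting intervals; the fold of Iars2 is 0.994, and every other interval lies under 1.

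The gene that surrounds Mir215 had nearly the same level in both libraries. Iars2, which encodes the mitochondrial isoleucyl-tRNA synthetase that loads isoleucine onto its tRNA for mitochondrial translation, was at 13.6 FPKM in wild-type epithelium (12.6 to 14.6) and 13.5 in knockout epithelium (12.5 to 14.5). These levels stood for 695 and 717 fragments, and the fold of knockout over wild-type was 0.994 (0.894 to 1.10). Iars2 was the only one of the 8 protein-coding members whose interval held 1. Its log2 difference of -0.01 turned to 0.12 when the knockout values were multiplied to equal sums, so its direction depends on the scaling.

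The partners that flank Iars2 were modestly lower. Rab3gap2, the non-catalytic subunit of the complex that regulates RAB3 and activates RAB18 in membrane traffic, was at 14.04 FPKM (13.2 to 15.0) and 12.02 FPKM (11.2 to 12.9). Its fold was 0.856 (0.779 to 0.941) and its log2 difference -0.21. The interval reached 1.03 after scaling to equal sums and 1.02 after scaling to equal upper quartiles, so Rab3gap2 was apart beyond counting error under the deposited scaling but not under those. Bpnt1, a nucleotidase that breaks down the PAP left over from sulfation reactions, was at 241 FPKM (234 to 248) and 196 FPKM (190 to 202). Its fold was 0.814 (0.779 to 0.849) and its log2 difference -0.30, a smaller step than that of any member beyond 0.1 Mb. Iars2 and Rab3gap2 overlap at their 3′ ends on opposite strands. The library kit keeps the strand, but the sources used here do not state whether the counting used it, so fragments in the shared 2034 bases may have been credited to either gene.

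The Mosc pair, about 0.5 Mb away, was lower in knockout epithelium at very different levels. Both genes encode mitochondrial amidoxime reducing components, molybdenum enzymes that reduce N-hydroxylated compounds with electrons passed on by a cytochrome b5 and its reductase. Mosc2 was the most abundant member, at 434 FPKM (424 to 444) in wild-type epithelium and 262 FPKM (254 to 269) in knockout epithelium. With 7183 and 4495 fragments, it was 1.66-fold lower (1.60 to 1.72), a log2 difference of -0.73. By level among the 11504 genes kept it had rank 294 in wild-type epithelium and rank 415 in knockout epithelium.

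Mosc1 was the least abundant protein-coding member. It was at 1.26 FPKM (0.778 to 1.88) in wild-type epithelium and 0.303 FPKM (0.120 to 0.709) in knockout epithelium. Its 22 and 6 fragments made it 4.15-fold lower (1.497 to 11.5), by far the widest interval of the 8. The added 1 shrinks this to -0.79 on the log2 scale, and with an added 5 FPKM it was -0.24, under the 1.5-fold line. The annotated transcripts of Mosc1 and Mosc2 share no run longer than 38 nt, but the sources used here do not state how fragments matching both were assigned. Mosc2 also holds the microRNA gene Mir1981 on its own strand, listed at 1172 FPKM in wild-type epithelium and 0 in knockout epithelium, which stood for 1 fragment and none.

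The 3 members between 4 and 6 Mb away had the largest log2 differences of the protein-coding members with an added 1 FPKM, all more than 2-fold on that scale. The count of members at least 2-fold lower was 3 with an added 1 FPKM, 1 with an added 5 FPKM and 2 under each of 3 other scalings. With an added 0.1 FPKM it was 4, and Mosc1, at -1.75, then had the largest log2 difference. Ephx1 encodes microsomal epoxide hydrolase, which opens reactive epoxides formed from drugs and pollutants. It was at 15.7 FPKM (13.8 to 17.9) in wild-type epithelium and 7.12 FPKM (5.84 to 8.59) in knockout epithelium. With 230 and 108 fragments it was 2.21-fold lower (1.75 to 2.81), a log2 difference of -1.04. On the log2(FPKM + 1) scale, Ephx1 was under 2-fold lower but past 1.5-fold under each of the other scalings of the knockout values.

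Adck3 encodes an atypical kinase of the mitochondrial inner membrane that is needed for coenzyme Q synthesis. It was at 20.9 FPKM (19.5 to 22.5) in wild-type epithelium and 8.66 FPKM (7.74 to 9.64) in knockout epithelium. With 767 and 329 fragments it was 2.42-fold lower (2.12 to 2.76). Its 3′ end shares 366 bases with Cdc42bpa on the other strand, where the same limit on strand applies.

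Sccpdh encodes a protein named for its likeness to saccharopine dehydrogenase, an enzyme of lysine breakdown. It was at 60.3 FPKM (56.6 to 64.1) in wild-type epithelium and 25.99 FPKM (23.7 to 28.5) in knockout epithelium. With 1015 and 455 fragments it was 2.32-fold lower (2.07 to 2.59). Adck3 and Sccpdh had the same log2 difference to 2 decimals, -1.18, at ranks 158 and 159 from the lowest of the 11504 genes, and Ephx1 stood at rank 209. The FPKM folds of the 3 genes had intervals that overlapped one another, and none overlapped that of Mosc2.

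By level, the order of the protein-coding members in wild-type epithelium was Mosc2, Bpnt1, Sccpdh, Adck3, Ephx1, Rab3gap2, Iars2 and Mosc1. Neighbours in this order were apart beyond counting error, except that Ephx1, Rab3gap2 and Iars2, at 13.6 to 15.7 FPKM, had intervals that overlapped. In the knockout library Mosc2, Bpnt1 and Sccpdh kept the first 3 places and Mosc1 the last. Iars2 and Rab3gap2 then stood above Adck3 and Ephx1, with 13.5 and 12.02 against 8.66 and 7.12 FPKM, and the intervals overlapped within each of these pairs. Together the 8 genes summed to 801 FPKM in wild-type epithelium and 525 in knockout epithelium, and most of that gap came from Mosc2 and Bpnt1.

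The promoters of the 3 far genes are printed because these genes had the closest log2 differences and are consecutive members by position. Each runs from 250 bases before to 50 bases after the gene's start in RefSeq on GRCm38.p6, on the strand of the gene. RefSeq lists 2 such windows for Adck3 and for Mosc2, and the first listed was used. The starts of Ephx1 and Adck3 in RefSeq lie inside the gene bounds of GENCODE given above. Capitals mark the GC box GGGCGG.
Ephx1 promoter, chr1:181017520-181017819, minus strand: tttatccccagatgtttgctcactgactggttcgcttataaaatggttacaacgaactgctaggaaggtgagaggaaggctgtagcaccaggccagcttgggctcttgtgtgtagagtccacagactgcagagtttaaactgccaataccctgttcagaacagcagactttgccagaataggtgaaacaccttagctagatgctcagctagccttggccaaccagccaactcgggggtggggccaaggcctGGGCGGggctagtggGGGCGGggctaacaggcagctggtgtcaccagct
Adck3 promoter, chr1:180195971-180196270, minus strand: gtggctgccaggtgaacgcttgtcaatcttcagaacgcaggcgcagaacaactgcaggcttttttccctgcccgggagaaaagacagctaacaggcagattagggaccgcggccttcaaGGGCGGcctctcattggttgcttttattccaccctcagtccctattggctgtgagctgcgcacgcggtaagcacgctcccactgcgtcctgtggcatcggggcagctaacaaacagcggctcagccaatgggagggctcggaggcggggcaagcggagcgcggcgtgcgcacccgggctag
Sccpdh promoter, chr1:179667981-179668280, plus strand: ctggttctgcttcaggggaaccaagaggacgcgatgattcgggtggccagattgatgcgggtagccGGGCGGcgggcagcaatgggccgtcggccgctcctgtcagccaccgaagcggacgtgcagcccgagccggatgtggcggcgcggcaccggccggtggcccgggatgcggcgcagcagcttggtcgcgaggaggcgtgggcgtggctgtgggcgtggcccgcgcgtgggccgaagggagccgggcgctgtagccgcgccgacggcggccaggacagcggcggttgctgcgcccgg

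Promoters of all 8 protein-coding members were searched on both strands for GGGCGG (the GC box), CCGGAAGT (an ETS element), CAAAGTCCA (an HNF4A element), TGACNNNGC (the core of the antioxidant response element), CACGTG (an E-box) and TTTATG (a CDX2 element). Of 32851 promoters of the same length, 35.7% held the GC box, 3.89% the ETS element, 0.475% the HNF4A element, 12.4% the antioxidant response core, 7.15% the E-box and 11.9% the CDX2 element. Matches of different motifs may share bases. The GC box was found 2 times for Ephx1 and 1 time each for Adck3 and Sccpdh, which held no other motif searched. Among the near genes, Iars2 held 3 GC boxes, Mosc1 2 and Rab3gap2 1, and the windows of Mosc2 and Bpnt1 held none. The CDX2 element was found 1 time each for Iars2 and Mosc2, and the E-box 1 time for Rab3gap2. CpG dinucleotides numbered 5 in the Ephx1 window, 22 in that of Adck3 and 43 in that of Sccpdh, against a median of 7 over all promoters. A match is a run of letters and not a site shown to be bound.

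The members' longest annotated 3′ UTRs, from 225 nt in Ephx1 to 2763 nt in Rab3gap2, were searched for the reverse complement of the seed that miR-215 and miR-192 share. TAGGTCA occurred in none of the 8, against 772 of 10993 kept genes with an annotated 3′ UTR (7.02%). CTGTTAC, the reverse complement of the miR-194 seed, occurred 1 time, in Mosc1, against 1269 of those genes (11.5%). No match says only that these letters are not in the 3′ UTRs searched.

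Genes between the members differed in direction and size. Within 1 Mb of Mir215, 12 genes were kept, and 4 of them (33.3%) were at least 1.5-fold lower: the members Mir215, Mosc1 and Mosc2, and Mir1981 with its single fragment. Of the 10 kept genes of at least 200 nt in this window, 2 were lower at that size, Mosc1 and Mosc2. Within this distance no gene was at least 1.5-fold higher. Eprs, which encodes the cytoplasmic glutamyl-prolyl-tRNA synthetase and lies just beyond Bpnt1, was higher in knockout epithelium, at 11.5 and 14.8 FPKM with a fold of 1.29 (1.15 to 1.44). Thus Bpnt1 was flanked by Iars2 at 0.994 and Eprs at 1.29, with its own fold at 0.814. Slc30a10, a manganese exporter, was at 11.03 and 7.60 FPKM, with a fold of 0.689 (0.607 to 0.781). C130074G19Rik, the next kept gene on the Mir215 side of Mosc2, was at 69.0 and 54.7 FPKM, with a fold of 0.793 (0.741 to 0.848).

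The remaining genes of this stretch gave little to compare with the members. Gm2061, which overlaps Slc30a10 on the other strand, was at 4.58 and 3.60 FPKM and Lyplal1 at 1.72 and 1.66 FPKM, and both fold intervals held 1. Hlx (0.317 and 0.204), 9630028B13Rik (0.641 and 0.525) and Mark1, with 2 fragments in each library, were under 1 FPKM in both. The non-coding genes 1700112H15Rik, 4930488B22Rik, 5033404E19Rik, Mir664 and Snora36b were listed at 0 in both; the last pair lie within Rab3gap2.

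**Figure D2:**
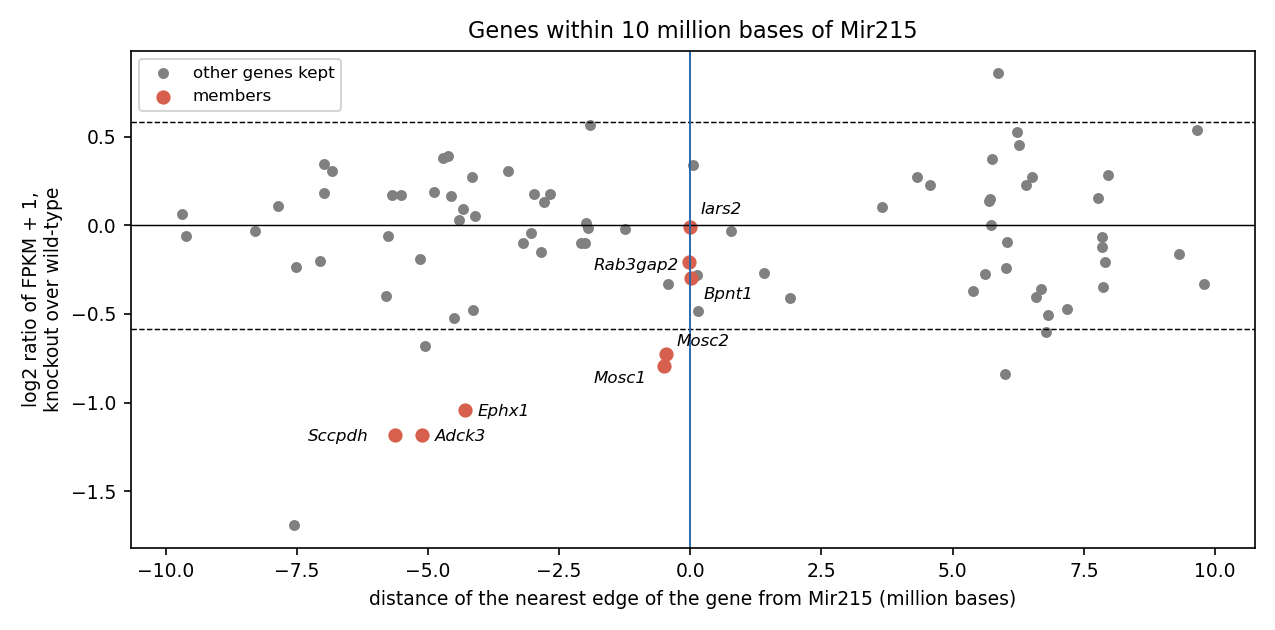
Log2 ratio of FPKM + 1, knockout over wild-type, of the kept genes of at least 200 nt within 10 Mb of Mir215, against the distance of the nearest edge of the gene from Mir215 in Mb; dashed lines mark 1.5-fold and single points are genes. Ephx1, Adck3 and Sccpdh lie between -1.04 and -1.18 among neighbours scattered around 0, and Iars2, at -0.01, lies on the Mir215 line. The genes shown that are not members run from -1.69 (1700016C15Rik) to 0.86 (Atf3), and Psen2, between Adck3 and Ephx1, lies at -0.68.

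The share of lower genes was smaller once the members were left out. Since the members were picked with their values known, this drop followed from the choice and is not a finding. Within 5 Mb, 41 genes were kept and 5 (12.2%) were at least 1.5-fold lower, the 4 above and Ephx1. Without the members 34 genes remained, and only Mir1981 (2.94%) was lower at that size. Mir215 and Mir1981 had too few fragments to compare. Without genes under 200 nt, 3 of 39 genes within 5 Mb (7.69%) were lower, beside 7.14% of all genes. Within 10 Mb, 11 of 88 kept genes (12.5%) were lower and 2 higher, and without the members 5 of 79 (6.33%) were lower. Those 5 were Mir1981, 1700016C15Rik, Nenf, Psen2 and Rcor3, the last named after its value was seen to complete the count. Over all kept genes 7.26% were lower, and on chromosome 1 beyond 10 Mb 9.66% of 559 genes were. Chromosome 1 as a whole, with 65 of 647 genes lower (10.05%), had the second highest share of the 20 chromosomes counted, which ranged from 4.91% to 10.6%.

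Some genes near the far members were lower as well. Psen2, a catalytic subunit of gamma-secretase at 5.05 Mb, between Adck3 and Ephx1, was at 6.19 and 3.48 FPKM, with a fold of 0.562 (0.409 to 0.781). That interval overlapped those of Ephx1, Adck3 and Sccpdh. Cdc42bpa, which overlaps the 3′ end of Adck3, was at 2.34 and 1.93 FPKM, a log2 difference of -0.19. Among the kept genes between Sccpdh and Ephx1 that are not members, Psen2 alone was at least 1.5-fold lower. Beyond Sccpdh, 1700016C15Rik at 7.56 Mb was at 8.72 and 2.01 FPKM, with 47 and 11 fragments and a fold of 0.230 (0.105 to 0.441). On the other side of Mir215, where none of the far members lies, Nenf, a secreted neurotrophic factor, was at 15.7 and 8.34 FPKM (fold 0.530, 0.358 to 0.775). Atf3, a stress-induced transcription factor 5.86 Mb away on that side, was higher in knockout epithelium, at 22.7 and 41.9 FPKM (fold 1.85, 1.63 to 2.09). Mir29c, the other gene counted as higher within 10 Mb, rested on 1 fragment in knockout epithelium.

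**Figure D3:**
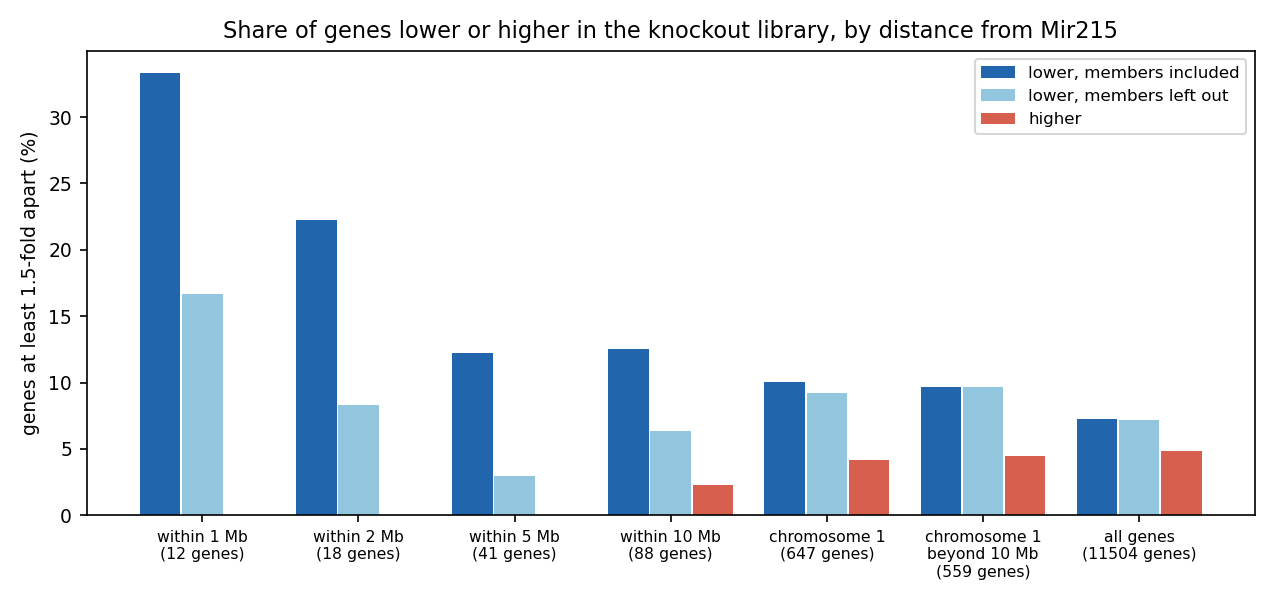
Percentage of kept genes at least 1.5-fold lower or higher in knockout epithelium, by distance from Mir215, with the number of genes kept under each group of bars; the light bars leave the members out. The share of lower genes within 1 Mb is 33.3% of 12 genes with the members and 16.7% of 6 without. The 16.7% is Mir1981 alone, which rests on 1 fragment. Within 5 Mb it is 12.2% and 2.94%. The members were picked with their values known, so leaving them out had to lower these shares. The bars count genes under 200 nt, and without these the share within 5 Mb, members included, is 7.69% of 39 genes. Within 1 Mb, 2 of 10 genes of at least 200 nt were lower, the members Mosc1 and Mosc2.

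Genes that act with each member were then compared by lists chosen by function. The list counts are set beside 7.26% lower and 4.83% higher over all kept genes and a median of -0.05. The lists hold few genes and none of these counts is a test.

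Iars2 belongs to the mitochondrial aminoacyl-tRNA synthetases, of which all 17 were kept and none was 1.5-fold apart on the log2(FPKM + 1) scale. Without Iars2 the median of the other 16 was -0.03, with genes in both directions. The most abundant one, Lars2, the leucyl enzyme, was at 1080 and 792 FPKM, and the next, Rars2, at 21.6 and 18.5 FPKM. Whether all fragments credited to Lars2 came from its messenger RNA was not tested. Pars2, the prolyl enzyme, was at 2.34 and 1.27 FPKM. The FPKM fold of Pars2 was 0.543 (0.338 to 0.858), which is past 1.5-fold without the added 1, and its log2 difference -0.56. Sars2, the seryl enzyme, was at 4.22 and 5.69 FPKM.

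Of 10 kept genes of molybdenum cofactor synthesis and amidoxime reduction, 3 were at least 1.5-fold lower, Mosc1, Mosc2 and Cyb5b, and none higher. Cyb5b, the outer mitochondrial membrane cytochrome b5 that hands electrons to the Mosc proteins, was at 326 and 203 FPKM, with a fold of 0.622 (0.605 to 0.639) beside 0.603 for Mosc2. Cyb5r3, the reductase before it in the chain, was at 349 and 236 FPKM (fold 0.676, 0.653 to 0.701), short of 1.5-fold on the log2 scale. Mocs2, a subunit of molybdopterin synthase, was at 147 and 103 FPKM. Of the other molybdenum enzymes, Suox, sulfite oxidase, was at 58.7 and 65.3 FPKM and Xdh, xanthine dehydrogenase, at 285 and 271 FPKM, so the lower values did not extend to every enzyme with this cofactor. The median over the list was -0.34, and -0.15 over the 8 genes that are not members.

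Bpnt1 and Rab3gap2 belong to lists in which no gene was 1.5-fold apart. Among 8 genes of sulfate activation and PAP breakdown, the median was -0.16, beside -0.30 for Bpnt1. Papss2, which makes the active sulfate donor, was at 182 and 155 FPKM (fold 0.855), and Slc26a2, a sulfate transporter, at 53.6 and 64.3 FPKM (fold 1.20, 1.15 to 1.25). Impad1, the Golgi enzyme that breaks down PAP, was at 17.7 and 16.3 FPKM. Of the 8 kept genes of the RAB3GAP complex and RAB18 cycle, with a median of -0.06, Rab3gap1, the catalytic partner of Rab3gap2, was at 14.3 and 14.8 FPKM. That level lay beside 14.04 and 12.02 FPKM for Rab3gap2 itself. Rab18, the GTPase that the complex activates, was at 56.1 and 48.2 FPKM, with a fold of 0.859 (0.804 to 0.918) beside 0.856 for Rab3gap2. Both folds are under the deposited scaling, and after scaling to equal sums the median of this list was 0.05.

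Ephx1 was one of several drug-metabolism genes that were lower. Of 18 genes that the receptors CAR and PXR or the factor NRF2 are known to induce, all were kept, 10 were at least 1.5-fold lower, 6 of these at least 2-fold, and none was higher. Without Ephx1, 9 of 17 were lower, with a median of -0.59. Cyp3a11, an abundant intestinal cytochrome P450, was at 1284 and 517 FPKM, 2.49-fold lower (2.43 to 2.54). Cyp2c55 was at 98.4 and 21.6 FPKM, 4.56-fold lower (4.08 to 5.10), and Cyp2c29 at 21.4 and 1.44 FPKM, 14.9-fold lower (9.64 to 23.6). Por, the reductase that supplies electrons to cytochromes P450, was at 114 and 129 FPKM and was not among the lower genes. Nor were Txnrd1, Gclc, Srxn1, Cyp3a13 and Ugt1a1, with folds of 1.13, 1.10, 0.986, 0.884 and 0.855. Alas1, with a fold of 0.678, fell short of 1.5-fold with or without the added 1. Hmox1, with 24 and 16 fragments and a fold of 0.642 (0.319 to 1.26), fell short on the log2 scale, and its interval held 1. The list was chosen with earlier results of these libraries known, so its count lends Ephx1 no independent support.

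Among the epoxide hydrolases, Ephx1 was the only one of 3 kept genes at least 1.5-fold lower. Ephx2, the soluble epoxide hydrolase, was far more abundant, at 539 and 382 FPKM, with a fold of 0.707 (0.686 to 0.730). Lta4h, leukotriene A4 hydrolase, was at 194.5 and 182 FPKM. Ephx3 and Ephx4 had 1 fragment each in both libraries.

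Adck3 and Sccpdh stood alone in their lists at 1.5-fold. Of 13 kept genes of coenzyme Q synthesis, Adck3 was the 1 gene at least 1.5-fold lower and none was higher, and without it the median of the other 12 was 0.01. Its closest relative Adck4 was at 16.0 and 15.2 FPKM, and Coq9, a lipid-binding partner in the pathway, at 57.5 and 49.1 FPKM (fold 0.853). Coq10a was at 6.74 and 5.07 FPKM. In lysine breakdown 3 of 6 genes were kept, and Sccpdh alone was lower at that size. Gcdh, glutaryl-CoA dehydrogenase, was at 13.4 and 12.9 FPKM and Aldh7a1 at 2.51 and 2.34 FPKM. Aass, which holds the saccharopine dehydrogenase activity of this pathway, had 3 fragments in wild-type epithelium and 1 in knockout epithelium.

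**Figure D4:**
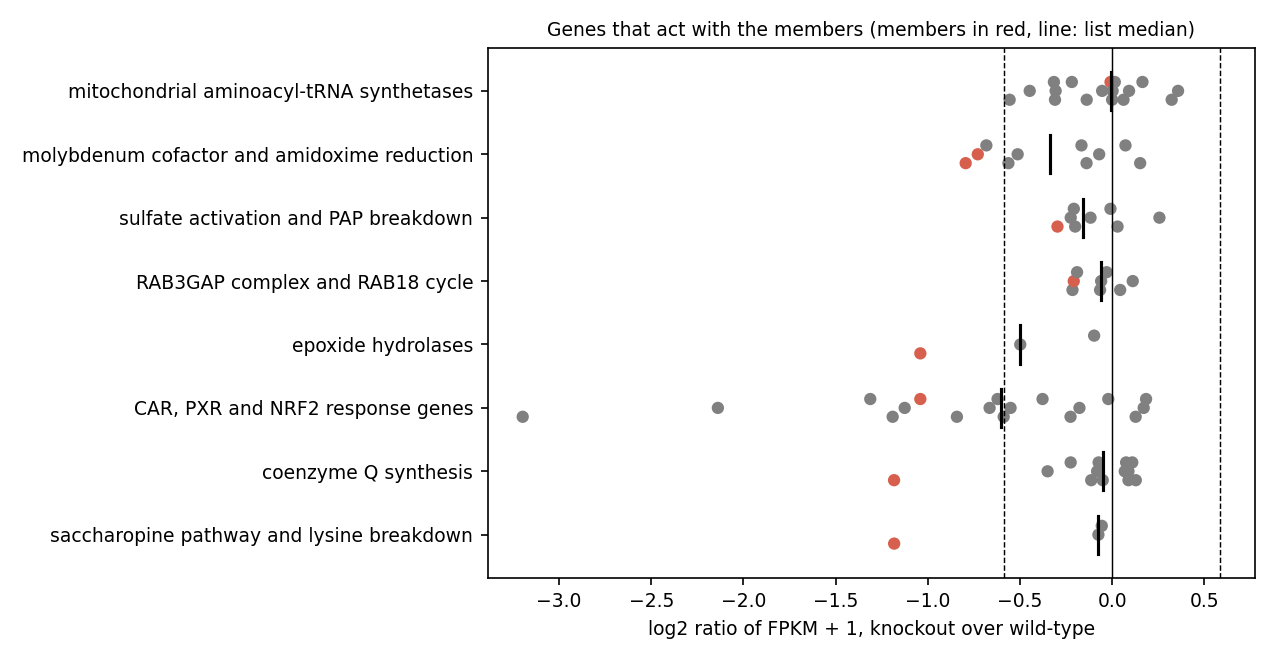
Log2 ratio of FPKM + 1, knockout over wild-type, of the kept genes in 8 lists of genes that act with the members; points are genes, members are in red, vertical bars are list medians and dashed lines mark 1.5-fold. Adck3 and Sccpdh lie at -1.18, away from the rest of their lists, and the CAR, PXR and NRF2 list has a median of -0.60.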

How the data were processed

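Per the labels' protocols, total RNA (RNeasy Mini) went into stranded mRNA libraries (TruSeq). Cuffnorm 2.2.1, TopHat2 2.0.13, SAMtools 0.1.19 and Bowtie2 2.2.3 are named in the submitters' processing notes, with mm10. The sources used here do not give their roles and settings, the annotation or the scaling. The deposited values are taken to be FPKM, 1 per gene and library, made by the authors; no header names the unit, which was read from the tool, the layout and the values.

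From these values, genes that reached 1 FPKM in one or both of the 2 libraries were kept, and log2 ratios used an added 1 FPKM. In all, 602 genes were above 0 and below 0.1 FPKM in each library. Of these, 247 had a knockout to wild-type ratio of 0.963, the relative worth of 1 fragment. That worth was fitted on 699 low values of genes with 1 annotated transcript, with 220 nt taken off the transcript length. Of values under 3.5 fragments, 77.9% and 77.1% were whole within 0.1. The fit was chosen to bring low values of these same genes near whole numbers, so these shares are no independent check of it. At this depth 1 FPKM on a 2 kb transcript stood for 17.3 and 18.0 fragments. Intervals are exact 95% Poisson (levels) or Clopper-Pearson (folds) intervals of the estimated fragments, and the floor is 3 fragments. The code was tested on simulated data. Positions come from GENCODE M21 on GRCm38, for 22821 of 23284 symbols (1932 of them through older symbols), and sequences from RefSeq. Python 3.11.15, pandas 2.3.3 and scipy 1.17.1 were used.

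The members, the lists and the rules were chosen with earlier results of these data known. Named genes were the members, the 4 microRNA genes of both clusters, every listed gene within 1 Mb of Mir215, up to 12 genes within 10 Mb of largest log2 ratio past 1.5-fold, and from each list up to 3 kept genes of largest log2 ratio and the most abundant one; further list genes were named for their role beside a member, after their values were seen. Alternatives were other pseudocounts, minimum levels, scalings, transcript lengths and windows, and leaving out short genes or the members.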

Additional observations from a re-analysis of the deposited data

How the results depend on the processing

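Apart from Iars2, the protein-coding members were lower in the knockout library under each alternative that kept them (a minimum of 5 FPKM leaves out Mosc1); Iars2 ranged from -0.01 to 0.12 on the log2 scale. The members' median log2 difference was -0.79, and -1.13 with an added 0.1 FPKM. Of the 8, 5 were at least 1.5-fold lower, and 4 with an added 5 FPKM (Mosc1 not among them) or a minimum of 5 FPKM (7 kept). At 2-fold, 3 were lower, 1 with an added 5 FPKM, 4 with an added 0.1 FPKM and 2 under each other scaling. Ranges were -1.21 to -1.05 for Sccpdh, -1.26 to -0.92 for Adck3, -1.13 to -0.77 for Ephx1 and -1.75 to -0.24 for Mosc1.

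Within 5 Mb, 5 genes were lower and 0 higher. Lower genes numbered 3 without genes under 200 nt (7.69% of 39), 11 within 10 Mb and 1 without the members. Higher genes numbered 1 with an added 0.1 FPKM or after scaling the knockout values to equal sums, equal upper quartiles or a median ratio of 0, and 2 within 10 Mb. Over all genes, 835 were lower and 556 higher. With an added 0.1 FPKM 928 were higher; with an added 5 FPKM 466 were lower and 180 higher; with a minimum of 5 FPKM 314 were higher. After scaling to equal sums 905 were higher and 569 lower, and to equal upper quartiles 861 and 601, so the lower share of these genes went from 60.03% to 38.6% and 41.1%. The cause was not tested. Over the lists 16 genes were lower and 1 higher, and 0 higher without genes under 200 nt, where Mir192 drops out.

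No paired analysis was possible because each genotype has 1 library with no replicate number, and no alternative leaves out a library. Depth limits Mosc1, with 22 and 6 fragments, and all genes under 200 nt.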
